A study of Rattus norvegicus with 3 samples.

Results

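The submandibular and sublingual glands of the rat were compared through 2 arrays of a series of 3, the array titled for the submandibular gland and the array titled for the sublingual gland. The arrays were taken by their titles, and every gene with a matched probe entered the comparison. Glands came from male Wistar rats aged 10 weeks that had received no treatment, and 500 ng of total RNA was labelled with Cy3 for each 1-colour Agilent array. According to the design text 3 rats were used, but the labels do not tell whether an array holds 1 animal or a pool. Without replicates no test could be made, and gland, animal and labelling reaction cannot be told apart. The parotid array is given only as a further level beside named genes.

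The rat submandibular gland is built of acini that secrete a mixed, protein-rich saliva and of granular convoluted ducts, which in male rodents store kallikreins, growth factors and other peptides under androgen control. The sublingual gland is mainly mucous: its acini make gel-forming mucin and are capped by serous demilunes. The parotid gland is serous and is known for amylase, deoxyribonuclease and proline-rich proteins.

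Levels are log2 signals minus the 75th percentile of the array, so a difference of 1 is 2-fold. Of 15996 genes, the submandibular-labelled array had 63.2% well above background and the sublingual array 64.3%. No spot was saturated. A difference could be given for 10454 genes. If 1 of the 2 levels was not well above background, the bright level was set against the lowest detected level of the dim array, or against the dim probe if that read higher; such a fold is a bound and is written "at least". Error could be estimated from repeat spots alone. Their median SD was 0.080 (submandibular-labelled) and 0.086 (sublingual), which gives 0.117 for a difference. For 1800 genes with several probes, the differences read by 2 probes lay a median of 0.19 apart.

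The submandibular label was checked first against the gland's known products. The granular duct products Klk1, Klk1b3 and Egf were not set apart on this array. The tissue kallikrein Klk1 had a level of 7.54 (parotid), 7.72 (submandibular-labelled) and 7.37 (sublingual). Klk1b3, a second tissue kallikrein, read 8.14, 8.35 and 7.98 in the same order. Epidermal growth factor, Egf, read 2.62, 2.02 and 1.61. The gel-forming mucin of the sublingual gland, Muc19, read 9.80 (submandibular-labelled) and 9.71 (sublingual), against -4.19 on the parotid array, where it was not well above background. Other submandibular products given below, Spt1, Grpca and Smr2, read higher on this array than on both others. Grpca and Smr2 were singled out after their values were seen, and Spt1 was named for its large difference. Reading higher here than on the sublingual array was thus part of how these genes were chosen, so it cannot check the label. Spt1 is also a product of the sublingual gland. Which tissue the array holds was not tested, so the array is called submandibular-labelled throughout. Its group was not changed.

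The 2 arrays were close to each other. Among the 9910 genes well above background on both, 90.7% lay within 1.5-fold, the median difference was 0.052, and the SD of the differences was 0.37. The submandibular-labelled array was higher by 2-fold or more for 61 genes (0.584% of those compared), and the sublingual array for 99 (0.947%). By 1.5-fold or more the shares were 4.66% and 6.06%. At 4-fold, 7 and 16 genes remained, and 18 and 23 of the 2-fold differences were bounds.

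**Figure D1:**
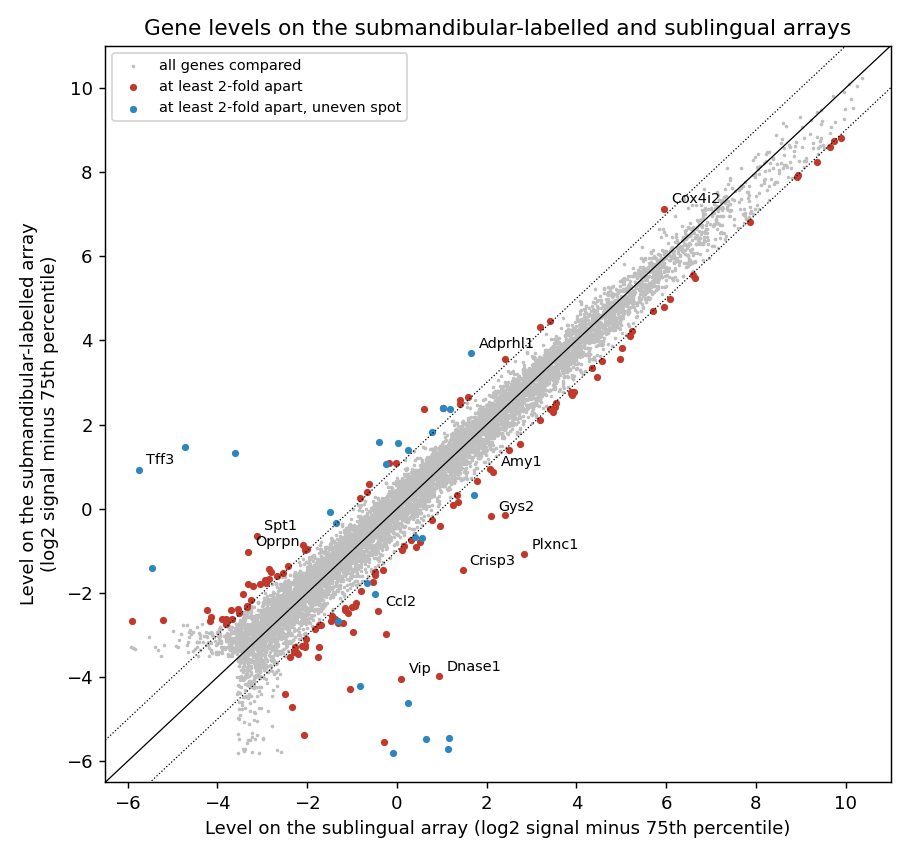
Level of each gene compared on the sublingual array (horizontal axis) against the submandibular-labelled array (vertical axis), both as log2 signal minus the array's 75th percentile; the solid line marks equal levels, dotted lines mark 2-fold, and blue points had an uneven spot (pixel SD over 0.25 of the mean) on either array. Most genes lie between the dotted lines, with 61 genes at least 2-fold above and 99 at least 2-fold below; for points with a dim side the fold counted is the bound, not the plotted distance.

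Uneven spots were common among the largest differences. The SD of the pixels within a spot exceeded 0.25 of the spot's mean for 0.577% of spots (submandibular-labelled) and 0.481% (sublingual). Of the 10 largest differences, 7 towards the submandibular-labelled and 5 towards the sublingual array came from a probe with such a spot on either array. Over all 2-fold genes these were 14 of 61 and 12 of 99. Among them were the olfactory receptor genes Or52p2, Or4a66b and Or2aj4, the calcium channel subunit gene Cacna2d4 and the transcription factor gene Gata3. Tff3, a secreted trefoil peptide of mucous epithelia, read 0.93 (submandibular-labelled) and -5.75 (sublingual) through an uneven spot, and its second probe was not well above background on any array. The part of spot quality in these differences was not tested. Without uneven spots, 47 and 87 genes were 2-fold apart.

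Most of the compared products of submandibular acini read higher on the submandibular-labelled array. Of 26 listed products, 14 had a probe and 8 could be compared. All but 1 of these 8 were higher there, beside 54.9% of all genes compared, and 2 were at least 2-fold apart. The median difference of the 8 was 0.81, against 0.045 over all genes. Spt1, a salivary protein of the submandibular and sublingual glands, read -0.64 on the submandibular-labelled, -3.13 on the sublingual and -5.30 on the parotid array, a difference of 2.49 between the first pair. Oprpn, a salivary mucin-like protein, read -1.03, -3.31 and 4.47 in that order. It was 4.87-fold higher on the submandibular-labelled than on the sublingual array and highest on the parotid array. The sublingual levels of Spt1 and Oprpn lie near the lowest detected level of that array, -3.74. Under other processing settings the difference fell as low as 1.09 for Spt1 and 0.91 for Oprpn. The salivary peroxidase Lpo read 1.38 and 0.39, a difference of 0.99, and Bpifa2, a salivary BPI-fold protein, read 7.36 and 6.41, a difference of 0.95. Bpifa2f, of the same fold family, read 10.09 and 10.07, a difference of 0.019, and Pip, the prolactin-induced protein of secretions, read 1.62 and 1.47. On the parotid array Lpo, Bpifa2 and Pip read 5.56, 10.16 and 10.33, higher than on either other. Oprpn, Lpo, Bpifa2 and Pip also belong to the list of parotid serous products below. The secretoglobin Scgb1c1 was the one listed member lower on the submandibular-labelled array, at 4.50 and 4.72.

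Of 30 granular duct products, 12 could be compared. The submandibular-labelled array was the higher in 10, beside 54.9% of all genes compared, and the median difference was 0.39. Smr3b, the precursor of sialorphin and related peptides, was the only member 2-fold apart, higher by at least 2.11-fold on the submandibular-labelled array and not well above background on the sublingual array. The second Smr3b probe was not well above background on any array. Smr3a, of the same family, went the other way, with -2.58 on the sublingual array, at least 1.99-fold higher. It read 9.78 on the parotid array and also belongs to the list of parotid serous products. The kallikreins Klk1, Klk1b3, Klk1c6, Klk1c8 and Klk1c2 differed by 0.35, 0.38, 0.45, 0.50 and 0.77. Their sequences are similar, so a probe may read more than 1 of them. The kallikrein symbols formed 1 of the 5 families with the largest median towards the submandibular-labelled array (5 of 6 higher, median 0.41). The others were Pgap, Ehd, Eno and Ephb, with medians of 0.54, 0.49, 0.48 and 0.43, of 470 families with at least 4 genes compared. Of the 10 enolase entries, 7 are named as pseudogenes of Eno1, so these probes may read the same transcript.

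A further 2 probes for submandibular secretory products were not matched to a single gene and stand outside the counts above; they were singled out after their values were seen. The file names one Grpca, a glutamine- and glutamic acid-rich salivary protein, and places it at chr4:170583910-170583969 (rn4). It read 3.28 on the submandibular-labelled, 0.18 on the sublingual and 1.46 on the parotid array, a difference of 3.11. The other, Smr2, read -0.38 on the submandibular-labelled array, was not well above background on the sublingual array and read -2.81 on the parotid array, a difference of at least 3.36. With such probes kept under the file's own names, 63 and 104 genes were 2-fold apart.

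Parotid-type serous products divided between the arrays. Of 15 compared, 8 leaned to the submandibular-labelled side and 7 to the sublingual side, with a median of 0.0073. The extremes ran from -4.52 to 2.28, the latter being Oprpn. Oprpn, Lpo, Bpifa2 and Pip, already described with the acinar products, are counted again among the 8. Dnase1, a secreted deoxyribonuclease, read 0.94 on the sublingual array, 10.71 on the parotid array and was not well above background on the submandibular-labelled array, so that its sublingual level was the higher by at least 22.9-fold. Crisp3, a cysteine-rich secretory protein, read 1.46 on the sublingual, -1.46 on the submandibular-labelled and 9.57 on the parotid array, a 7.59-fold difference. Amylase followed: Amy1 read 2.15 on the sublingual and 0.88 on the submandibular-labelled array, and Amy2-ps2 read 0.97 and -0.41. On the parotid array they read 10.76 and 10.05. Amy2-ps2 is named as a pseudogene, so its probe may read the same transcript as that of Amy1. Amy2a3 was not well above background on the sublingual or the submandibular-labelled array. Prb3, a proline-rich protein, went the other way, with 1.21 (submandibular-labelled) and 0.46 (sublingual). Dnase1, Crisp3, Amy1 and Amy2-ps2 were all many-fold higher on the parotid array than on either other. Whether parotid RNA had a part in their sublingual levels was not tested.

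**Figure D2:**
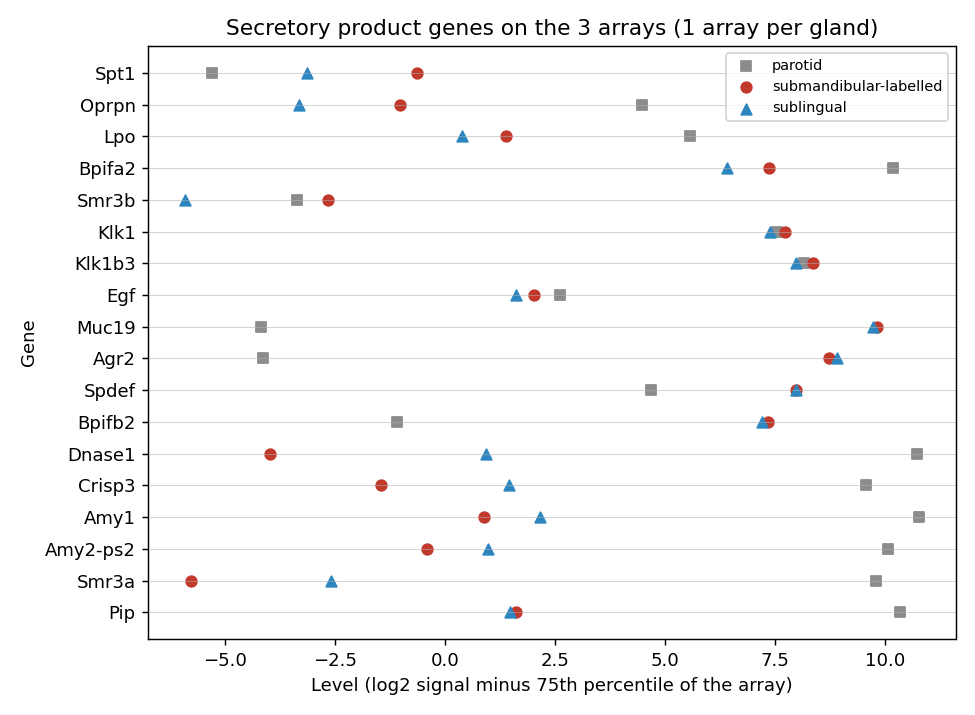
Level of 18 secretory and mucous cell genes on each of the 3 arrays (log2 signal minus the array's 75th percentile; squares parotid, circles submandibular-labelled, triangles sublingual; levels below about -3.5 are not well above background). Muc19, Agr2, Spdef and Bpifb2 nearly coincide on the submandibular-labelled and sublingual arrays. Spt1 and Oprpn are higher on the former, and Dnase1, Crisp3, Amy1 and Amy2-ps2 are higher on the latter.

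Mucous cell genes were at similar levels on both arrays. Of 18 compared, 11 leaned to the submandibular-labelled side and 7 to the sublingual side, with a median of 0.15. The disulfide isomerase Agr2, needed for mucin production, read 8.71 and 8.89, and the mucous cell transcription factor Spdef read 7.96 and 7.98. Muc15, a membrane mucin, was 2-fold apart, with -1.68 (submandibular-labelled) and -2.85 (sublingual), as was Tff3 through the uneven spot described above. The related isomerase Agr3 read 1.81 and 2.74, a difference of -0.93. Over 30 mucin glycosylation genes the median was 0.18, and none was 2-fold apart. The largest difference of the list was that of the fucosyltransferase Fut2, whose 2 probes differed by 0.82 and at least 0.78.

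Duct and myoepithelial genes leaned towards the submandibular-labelled array by small amounts. Of 22 duct cell genes, 19 were higher there (median 0.23), and Elf5, an epithelial transcription factor, was 2.23-fold higher (-1.77 against -2.93). Of 14 myoepithelial and basal genes 12 were higher (median 0.25). The basal keratin Krt14 read 4.70 and 4.09, and its second probe gave the same difference of 0.61. Of 14 endothelial genes 9 were higher (median 0.28), beside 54.9% of all genes, and the largest difference was that of Plvap, a component of endothelial fenestrae, at 0.82. The summed level of the endothelial list was 4.33 (submandibular-labelled) and 4.50 (sublingual), and its members Kdr and Egfl7 were lower on the former, by differences of -0.30 and -0.48. Cox4i2, an isoform of a cytochrome oxidase subunit, was 2.27-fold higher on the submandibular-labelled array (7.13 against 5.95), with 2.19 on the parotid array. Among other genes at least 2-fold higher were Wnt9b, a secreted Wnt ligand (2.50 and 1.42), the serine protease gene Prss32 (2.66 and 1.59) and Faah, the hydrolase of anandamide (2.40 and 1.04). The second Faah probe gave -2.03 and -2.53, a smaller difference in the same direction.

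**Figure D3:**
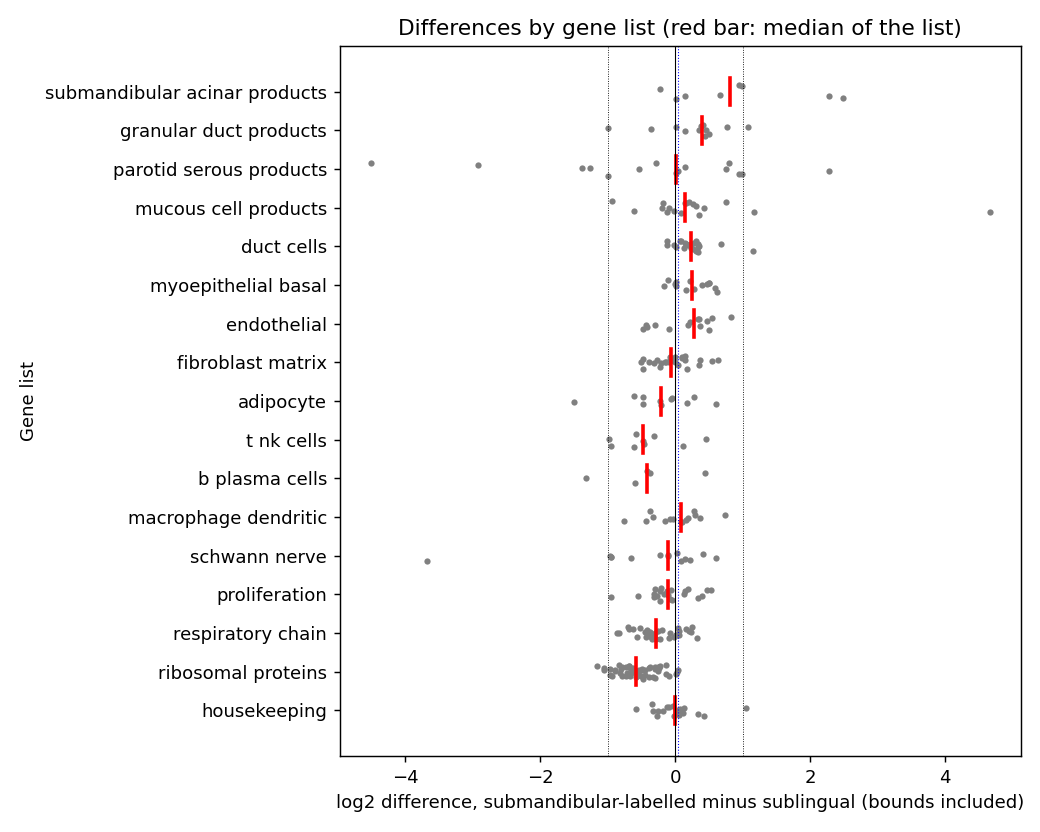
Difference of each gene compared (log2, submandibular-labelled minus sublingual, horizontal axis; bounds included) in 17 gene lists, with red bars for list medians, a blue dotted line for the median of all genes and black dotted lines at 2-fold. Medians run from -0.58 for ribosomal proteins to 0.81 for submandibular acinar products.

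Nerve and immune genes included several that were higher on the sublingual array. Vip, a neuropeptide of parasympathetic fibres that drives secretion and blood flow, read 0.10 on the sublingual array and was not well above background on either other, which is at least 12.8-fold above the submandibular-labelled array. The axon genes Gap43, Prph and Stmn2 differed by -0.97, -0.96 and -0.95. The 14 nerve genes compared had a median of -0.10, with 8 higher on the sublingual array. Summed over the nerve list, the level was 4.59 (submandibular-labelled) and 4.43 (sublingual). Several defining markers, among them Mag, S100b and Chat, were not well above background on either. Of 9 T and natural killer cell genes 7 were higher on the sublingual array (median -0.48), beside 45.1% of all genes compared. They were led by Cd3g, a chain of the T cell receptor complex, at -0.65 against -1.63. Cd3d, another chain of that complex, read 0.14 (sublingual) and 0.26 (submandibular-labelled), and 9 other genes of the list with a probe could not be compared. Of 5 B and plasma cell genes 4 were higher there (median -0.42), led by the plasma cell receptor gene Tnfrsf17 at 0.43 against -0.90, while Cd79b and Ms4a1 were not well above background on either array. In bulk RNA, more cells of a type and more RNA per cell cannot be told apart.

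In all, 4 genes of the Ms4a family, which encode membrane proteins of leukocytes, lie in a row on chromosome 1 of rn4 and were all higher on the sublingual array. Ms4a7 differed by -1.20, Ms4a4a by -1.20, Ms4a6a by -0.93 and Ms4a6b by -0.70. The row came from a scan for 3 neighbouring compared genes within 1000000 bases, all at least 1.5-fold apart in 1 direction. A shared direction was thus the rule of the scan. It also returned rows of genes with unlike symbols, such as Dscam, Bace2 and Mx1, higher on the submandibular-labelled array. The chemokine gene Ccl2, which attracts monocytes, read -0.43 on the sublingual, -2.43 on the submandibular-labelled and -0.37 on the parotid array, a 4.01-fold difference. The adipocyte hormone gene Retn was higher on the sublingual array by at least 2.84-fold. The mast cell protease gene Cma1 read -0.79 (sublingual) and -1.95 through one probe and -2.08 and -2.67 through its second, while 4 of 7 mast cell and neutrophil genes compared were higher on the submandibular-labelled array (median 0.098). The 15 macrophage and dendritic genes had a median of 0.088 and none was 2-fold apart.

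Genes read by several probes gave few differences of 2-fold. Among 2330 genes with several probes compared, 0 (0.0%) had all probes 2-fold or more towards the submandibular-labelled array, and 5 (0.215%) had all 2-fold or more towards the sublingual array, among them Gys2, Ms4a7, Rpl35a and Timm8b. Gys2, the liver-type glycogen synthase, read 2.11 on the sublingual and -0.18 on the submandibular-labelled array with one probe, and -0.86 and -2.87 with the other, differences of -2.29 and -2.01. Its parotid levels were 0.96 and -1.86. Timm8b, an import factor of mitochondria, differed by -1.35 and -1.01, and the ribosomal protein gene Rpl35a by -1.12 and -1.11. The probes of Ms4a7 (-1.20 and at least 2.53-fold) overlap in sequence, so they are not separate readings. Plxnc1, a semaphorin receptor, was 15.1-fold higher on the sublingual array (2.83 against -1.08) by one probe, while its other probe was not well above background on any array.

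At 1.5-fold, 12 genes (0.515%) had all probes higher towards the submandibular-labelled side and 39 (1.67%) towards the sublingual side. The former included Prr5l, Susd2, Inhca, Fut2, Qsox1 and Krt14. The probes of Qsox1, a secreted sulfhydryl oxidase, differed by 0.76 and 0.96. The latter included the cytokine gene Il1b (-1.10 and -0.61), the calcium-binding protein gene S100a4 with 3 probes (-1.10, -0.91 and -0.74) and the secreted protease inhibitor gene Slpi (-0.95 and -0.79).

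**Figure D4:**
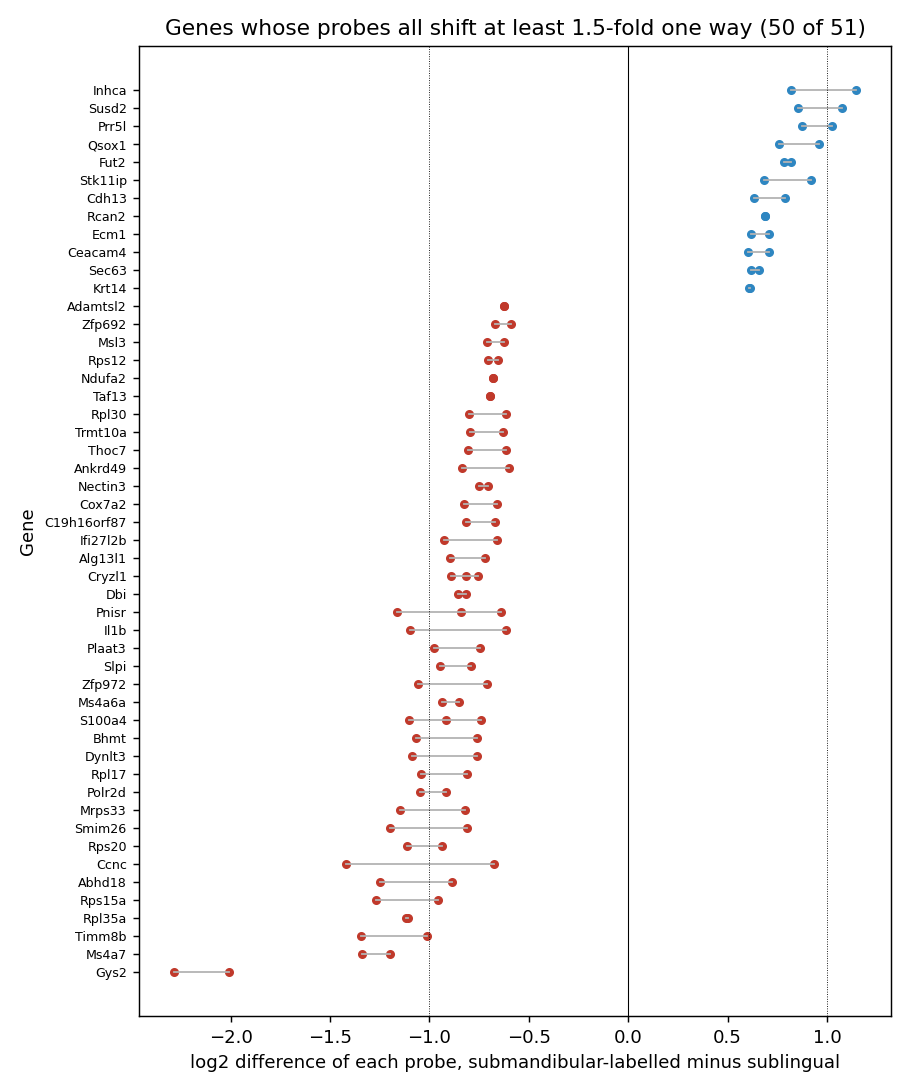
Difference of each probe (log2, submandibular-labelled minus sublingual, horizontal axis) for 50 of the 51 genes whose probes all shifted at least 1.5-fold the same way; points are probes, lines join the probes of a gene and dotted lines mark 2-fold. The genes towards the sublingual array include Gys2, whose probes lie near -2, and the 12 towards the submandibular-labelled array stay near 1 or below.

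Ribosomal protein genes shifted together. Ribosomal proteins form the small and large ribosome subunits, and their messenger RNAs typically begin with a pyrimidine tract through which their translation is regulated. Of 51 listed genes compared, 48 read lower on the submandibular-labelled array, beside 45.1% of all genes compared. The 51 had a median of -0.58 and a range from -1.15 to 0.034, against a median of 0.045 over all genes. At least 2-fold lower were 3 of the 51, beside 0.947% of all genes compared: Rpl22 (5.48 and 6.64), Rps18 (8.60 and 9.66) and Rps24 (6.81 and 7.87). On the parotid array these read 6.33, 9.84 and 8.32. By symbol, 49 of 52 Rps and 62 of 68 Rpl entries were lower, with medians of -0.67 and -0.52. At least 2-fold lower were 7 Rps and 5 Rpl entries, among them Rps21 (-1.12) and Rps26 (-1.04), which are outside the list of 51. Some entries are copies or pseudogenes whose probes may read the same transcript. Of 33 respiratory chain genes 23 were lower (median -0.29), led by Cox6c, a cytochrome oxidase subunit, with 7.12 and 7.98. The families Smim, Igsf and Higd also leaned this way, with medians of -0.60, -0.56 and -0.53.

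The difference also varied with level and with probe position, the latter not in 1 direction. Over genes well above background on both arrays, the median difference went from 0.11 at mean levels of -4 to -2 down to -0.22 above 6. Without ribosomal and respiratory chain genes the median above 6 was -0.092 over 302 genes, against -0.62 over 45 ribosomal protein genes. By position, the median was -0.059 for probes starting within 250 bases of the target's first base, or -0.019 without ribosomal and respiratory chain genes. For starts of 2000 to 4000 it was 0.10, and 0.035 over the 832 genes whose probes start farther in. Probes starting under 500 bases with a mean level of at least 4 were also set apart. Of these, 39 ribosomal protein genes had a median of -0.66 and 204 genes outside the ribosomal and respiratory lists had -0.22. The 2 groups were not alike in level. Median levels were 6.97 (submandibular-labelled) and 7.87 (sublingual) for the 39, and 5.31 and 5.55 for the 204. For 1185 targets with 2 probes at least 300 bases apart, the difference read by the 3′ probe minus that read by the 5′ probe had a median of -0.099. The 3′ value was the larger in 428. Within targets the probe farther in thus tended to read lower, opposite to the rise across genes up to starts of 4000. Under quantile normalization the ribosomal median was -0.32 and the respiratory median -0.081. The part of level, probe position and RNA quality in the shift was not tested.

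**Figure D5:**
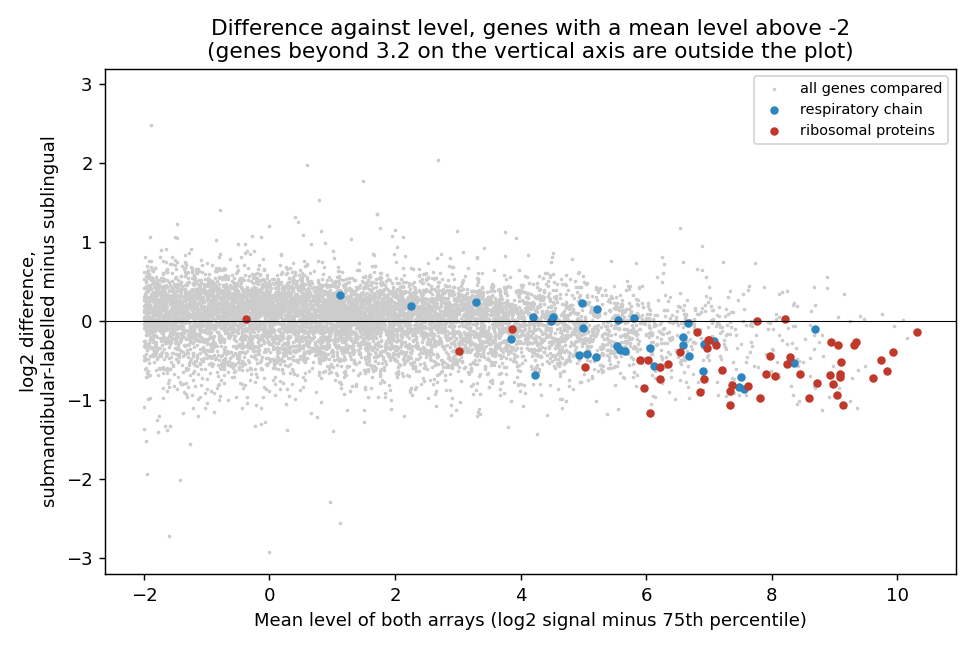
Difference (log2, submandibular-labelled minus sublingual, vertical axis) against the mean level of both arrays (horizontal axis) for genes with a mean level above -2, with ribosomal protein genes in red and respiratory chain genes in blue. Of the 51 ribosomal protein genes, 48 lie below 0, and the cloud of all genes also bends below 0 at high levels.

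The start sites of these genes were set beside their shifts, since the pyrimidine tract is what the family shares. A tract was counted as an unbroken run of at least 8 pyrimidines that overlaps the 5 bases either side of the annotated start, in RefSeq promoters of GRCr8 (250 bases before to 50 after the start). Of 40 listed ribosomal protein genes with a promoter entry, 65.0% held one, against 8.67% of all 33469 promoters and 3.33% of 30 respiratory chain promoters. With at least 6 pyrimidines the shares were 70.0%, 18.7% and 16.7%. Both lengths were looked at, and 8 was used for the capitals below. Of the listed genes with an entry outside chromosome 18, the 4 with the largest shift are shown. Each window runs from 30 bases before to 20 bases into the transcript, with the tract in capitals. They lie in GRCr8 with Rpl22 at chr5:168117931-168117980 (plus strand), Rps18 at chr20:4933715-4933764 (plus strand), Rps24 at chr16:96487-96536 (plus strand), Rpl38 at chr10:100200405-100200454 (plus strand).
Rpl22: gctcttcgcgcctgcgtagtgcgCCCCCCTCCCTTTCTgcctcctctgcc
Rps18: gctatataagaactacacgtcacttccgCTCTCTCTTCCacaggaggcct
Rps24: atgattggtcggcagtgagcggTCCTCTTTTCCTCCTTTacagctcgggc
Rpl38: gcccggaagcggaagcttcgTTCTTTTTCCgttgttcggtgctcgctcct

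The 4 with the smallest shift are shown the same way. They lie in GRCr8 with Rpl6 at chr12:41011671-41011720 (minus strand), Rpl10 at chrX:157205820-157205869 (plus strand), Rpl37 at chr2:55942915-55942964 (plus strand), Rplp0 at chr12:46718371-46718420 (minus strand).
Rpl6: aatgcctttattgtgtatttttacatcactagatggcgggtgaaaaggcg
Rpl10: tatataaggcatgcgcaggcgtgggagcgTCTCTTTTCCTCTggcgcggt
Rpl37: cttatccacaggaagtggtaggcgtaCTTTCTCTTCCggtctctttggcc
Rplp0: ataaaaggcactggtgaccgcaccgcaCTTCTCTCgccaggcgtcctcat

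By this rule all 4 genes with the largest shift and 3 of the 4 with the smallest held a tract. That of Rpl38 ends at the base before the annotated start, so it lies outside the annotated transcript. Rpl22 differed by -1.15 and Rpl38 by -0.97, while Rpl10, with a run of 13 pyrimidines, differed by 0.034. Rpl37 was read by the dimmest probe of the list, at -0.36 (submandibular-labelled) and -0.39 (sublingual), against list medians of 7.58 and 8.19. The 26 compared genes with a tract had a median difference of -0.56 and the 13 without one -0.49. A match of letters is a description of the window only.

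The following lists had medians from -0.20 to 0.31, against 0.045 over all genes. The 20 housekeeping genes had a median of -0.0081, and their only member 2-fold apart was Polr2a, the largest subunit of RNA polymerase II, read through an uneven spot. Ion and water transport genes had a median of 0.15 over 28 genes, with the potassium channel subunit Kcne1 at 8.11 and 7.36. Secretagogue receptor genes had 0.18 over 21, with the muscarinic receptor Chrm3 at 4.62 and 4.80. The 24 antigen presentation genes had 0.18, of which 20 were higher on the submandibular-labelled array, beside 54.9% of all genes compared. The 23 defence genes had 0.28, including the polymeric immunoglobulin receptor Pigr at 4.54 and 3.70. Gland transcription factors had 0.23 over 44, and Wnt, FGF, EGF and BMP genes 0.31 over 34. Fibroblast and matrix genes had -0.062 over 26, adipocyte genes -0.20 over 11 and cell division genes -0.11 over 22.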

How the data were processed

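RNA of the parotid, submandibular and sublingual glands was measured on 1 array each, and arrays were grouped by the gland in their titles. Each spot has deposited intensity columns (processed, mean and local background signal, and pixel SD), written by Agilent Feature Extraction 10.1.1.1 per the file headers, with spatial and multiplicative detrending on, local background correction off and surrogates for low signals; coordinates are rn4. Other deposited columns are flags per spot. The value table deposited by the authors is a linear ratio: the processed signal over a constant of each array (190, 236 and 250), within 0.0142 on the log2 scale over the spots compared.

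Levels are log2 of the processed signal minus the array's 75th percentile (signals of 186, 228 and 244), with control spots and outlier-flagged spots left out and spots of a probe averaged. Of 41012 probes, 20554 matched 1 gene of the RefSeq table of GRCr8, used for names only, which gave 16000 genes. The brightest probe stood for a gene. This matching was kept after large unmatched differences were seen; keeping the file's names was run as an added alternative. The cut for uneven spots was also chosen after seeing the data. Members, lists and thresholds were chosen with earlier results of these data known. Named genes are, per direction, the 20 with the largest fold and genes whose probes all shifted. List members at least 2-fold apart are named (up to 8), or the 3 with the largest difference plus a known member. Per direction, the 5 families with the largest median are named, among those with at least 75% of members on one side. Genes named beyond these were chosen after their values were seen. With 1 array per gland there was no test. Counting was tested on simulated data. Some listed genes are not reported here; counts and medians include them. Python 3.11.15, numpy 2.4.6, pandas 2.3.3, R 4.3.3, limma 3.58.1 and matplotlib 3.10.9 were used.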

Additional observations from a re-analysis of the deposited data

How the results depend on the processing

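Counts moved more than directions did. The 61 genes higher on the submandibular-labelled and 99 higher on the sublingual array became 20 and 52 with normexp background correction, 559 and 584 without a filter on dim probes, and 128 and 391 with probes in place of genes. They were 487 and 634 at 1.5-fold, 9 and 18 at 3-fold and 7 and 16 at 4-fold. Genes with several probes in agreement were 2 towards the submandibular-labelled array without the filter and 12 at 1.5-fold. Towards the sublingual array they were 3 with normexp, 2 with quantile normalization, 10 without the filter, 39 at 1.5-fold and 1 at 4-fold. Without the filter, 297 families in place of 160 had a median beyond the repeat-spot SD and at least 75% of members on one side. Of the 160 genes 2-fold apart, 70 stayed so with normexp. The ribosomal median moved to -0.32 and the respiratory chain median to -0.081 with quantile normalization. The submandibular-labelled share of the 2-fold calls, 38.1%, was 27.8% with normexp, 49.7% with quantile normalization, 51.9% with median centring and 48.9% without the filter; median centring raised the median of all genes from 0.045 to 0.12. In all, 3 values reversed: the red blood cell median, to 0.052 with genes above background on both arrays only, the lymph node stroma median, to 0.14 without the filter, and As3mt, to 0.69 once its uneven spot was left out. The cause of these moves was not tested. Leaving out uneven spots and keeping the file's names were chosen after seeing the data. No paired analysis was possible because there is 1 array per gland. Dim probes limit the comparison: 5542 genes have no difference at all.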

Other observations

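Chemokine ligands of the Ccl family leaned towards the sublingual array. Of 13 compared, 12 were lower on the submandibular-labelled array, with a median of -0.38, while 45.1% of all genes compared were lower there. Ccl2 was 4.01-fold lower, and Ccl24 and Ccl22 were lower by at least 1.72-fold and 2.16-fold. Ccl11 was the exception at 0.075. The family was picked after its values were seen.

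Probes that matched no single gene were not balanced in direction. Of 9806 compared, the submandibular-labelled array was higher by 2-fold or more for 56 (0.571%) and the sublingual array for 253 (2.58%). A probe for the predicted gene LOC685608, at chr7:142943693-142943752 (rn4) on the chromosome that holds the Spt1 probe at chr7:142745491-142755163, read 0.80 on the submandibular-labelled and -0.59 on the parotid array, and differed by 2.81 from the sublingual array. A probe described as similar to ribosomal protein L9 read 3.38 and 6.96, a difference of -3.58. Of the probes that the file names LOC363337, 4 were lower by 2-fold or more on the submandibular-labelled array, and their differences of -1.16 and -1.29 were bounds. Only probes at least 2-fold apart were looked at, so others of this name may differ less.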
